A study of Macaca mulatta with 16 samples.

Results

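The transcripts described here belong to 36 genes that mark the endothelial cells of blood capillaries, small veins and lymphatic vessels. They were chosen by gene symbol as markers of these cells, with no threshold on the measured values but with earlier results of these data known. In the table of 22515 rhesus genes, 33 of the 36 had a row, and all 33 were among the 19199 genes with enough reads to be tested. The symbols SOX7, TAL1 and AQP1 matched no gene identifier and were not analysed here. The 33 genes were described as 20 pan-endothelial genes, 7 genes of capillaries and venules, and 6 genes of lymphatic and sinusoidal endothelium.

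The endothelium lines every vessel, and in the developing lung it forms the capillary net that is brought close to the airspaces before birth. General capillary cells proliferate and answer to apelin, whereas the large, thin aerocytes that take part in gas exchange carry the endothelin receptor EDNRB and the enzyme CA4. Venules are the site where leukocytes leave the blood, and lymphatic vessels, specified by the transcription factor PROX1, drain fluid from the tissue.

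Total poly(A)-selected RNA was measured in whole fetal lung of 16 rhesus macaques, with 1 library for each fetus. The 4 preterm controls and the 2 term controls received no intervention. They were delivered at 131 to 135 days and at 156 and 157 days of gestation. The LPS 16h group of 4 fetuses received 1 mg of lipopolysaccharide (LPS), a bacterial cell wall product, into the amniotic fluid and was delivered 16 hours later at 130 to 131 days. The LPS 5d group of 3 fetuses received the same dose and was delivered after 5 days, at 131 to 134 days. In the LPS + Beta-Ac group of 3 fetuses, the dam also received 0.125 mg/kg of intramuscular betamethasone-acetate, a glucocorticoid, and delivery was after 5 days, at 131 to 132 days. The comparisons ask how intraamniotic LPS, its combination with Beta-Ac, and normal gestation relate to the vascular transcripts of the preterm lung. As a model, the term group was limited to 2 fetuses, and fetuses given Beta-Ac alone were not analysed here.

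Library totals were 30596371 to 48052891 counts in LPS 16h and 20169363 to 28348816 counts in the other 12 libraries, so that depth and early LPS exposure cannot be told apart. All 33 genes had reads in every library, including CDH5, the adhesion protein of endothelial junctions, and PROX1. Levels are given as log2 CPM, the log2 of a gene's reads relative to the scaled total of its library, which compares a gene between animals but not one gene with another. Values are listed in the order of the animal numbers, which are 092, 101, 113 and 209 for preterm controls, 026, 029, 035 and 038 for LPS 16h, 239, 240 and 242 for LPS 5d, 248, 249 and 255 for LPS + Beta-Ac, and 200 and 201 for term controls. A gene passed when its adjusted p was below 0.05 by limma, a linear model fitted across all 19199 genes, with the adjustment of Benjamini and Hochberg. A log2 fold change is a difference between 2 groups on the log2 CPM scale, given with its standard error (SE). The comparisons share the 4 preterm controls, so their values for a gene are set side by side and are not independent.

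At 16 hours after LPS, most endothelial genes that passed were lower than in preterm controls, while the venule genes ACKR1 and PLVAP and the kinase gene BMX were higher. In all, 12 of 33 genes passed as lower (36.4%, against 19.6% of all genes tested), and 3 passed as higher (9.09%, against 18.7%). With a change of at least 2-fold as well, 9 passed, against 14.4% of all genes. The genes that passed as lower were FOXF1, RAMP2, FLT4, ERG, STAB2, EMCN, SOX17, APLNR, STAB1, SHANK3, EDNRB and CALCRL. The median log2 fold change of the 33 genes was -0.36, and that of all genes was -0.09.

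At 5 days after LPS, ACKR1 was still higher, and EDNRB, ERG and CALCRL were lower than in preterm controls. This made 1 gene higher (3.03%, against 5.49% of all genes) and 3 lower (9.09%, against 9.23%), shares below or near those of all genes. Of these, 3 had changed at least 2-fold, against 4.83% of all genes tested. The same 4 genes passed in the same directions in LPS + Beta-Ac, again with 1 higher (background 7.1%) and 3 lower (background 10.2%), 3 of them at least 2-fold (background 6.5%). Without animal 248, the LPS + Beta-Ac count was 2. The median log2 fold change of the 33 genes was -0.17 in LPS 5d and -0.20 in LPS + Beta-Ac.

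In term controls, ACKR1 was higher than in preterm controls, and EDNRB, ERG, PLVAP, CDH5 and FOXF1 were lower. The single higher gene made 3.03% of the 33, against 1.42% of all genes, and the 5 lower genes made 15.2%, against 2.57%. At least 2-fold changes were found for 4 genes, against 2.07% of all genes. The count of 6 genes rested on single libraries: it was 1 without term control 200, and 3 without preterm control 092, 101 or 113. In a fit of the 6 control animals alone, 0 of the 33 genes passed by limma, and 14 had an unadjusted p below 0.05. The median log2 fold change of the 33 genes was -0.28.

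**Figure D1:**
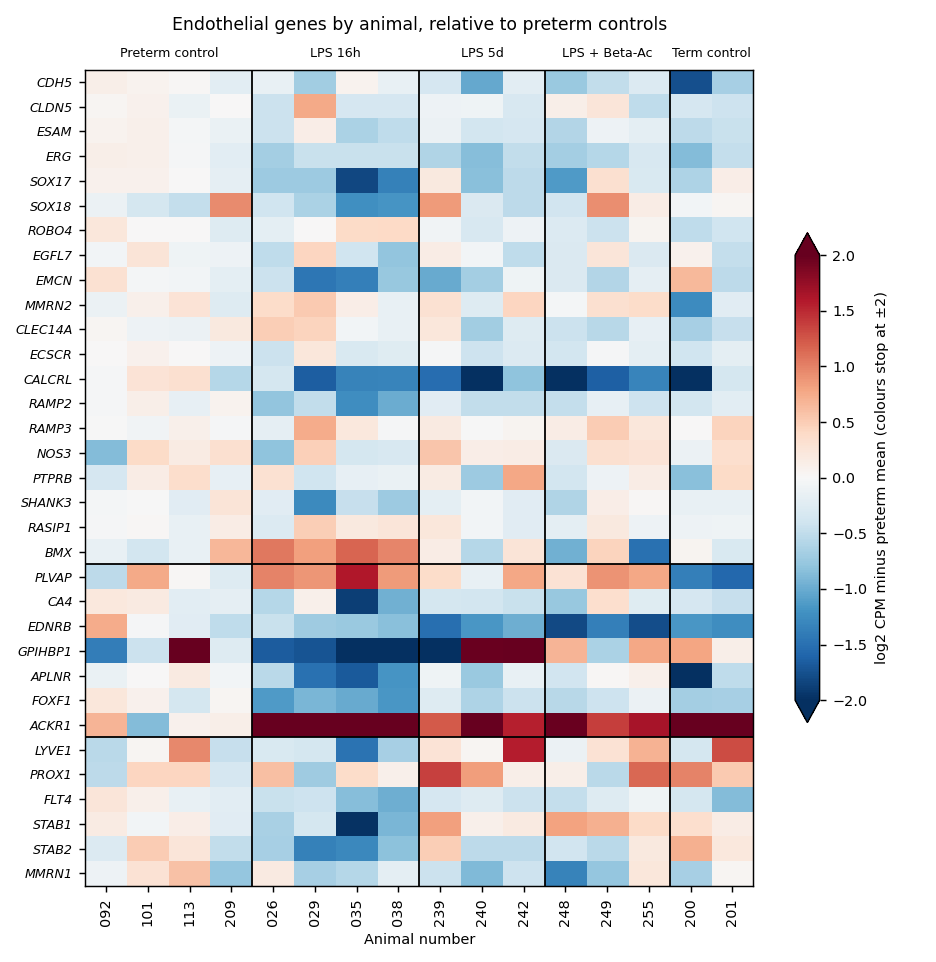
Log2 CPM of the 33 endothelial genes (rows) in each of the 16 animals (columns, by animal number), shown as the difference from the mean of the 4 preterm controls. Colours stop at a difference of 2 on the log2 scale. Horizontal lines part the 20 pan-endothelial, 7 capillary and venule, and 6 lymphatic and sinusoidal genes. ACKR1 was above the preterm mean in all 12 other animals, and EDNRB, ERG and CALCRL were below it in all 12.

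ACKR1, which encodes the atypical chemokine receptor that presents chemokines on venules and is also made by red cell precursors, moved most. ACKR1 stood at a log2 CPM of 1.66, 0.12, 1.06 and 1.10 in preterm controls, 6.95, 7.32, 7.29 and 6.81 in LPS 16h, 2.21, 3.19 and 2.54 in LPS 5d, 2.97, 2.37 and 2.63 in LPS + Beta-Ac, and 3.07 and 3.71 in term controls. All 12 other animals were above the 4 preterm controls, and LPS 16h was above every other animal. The mean level rose from 2.05 ± 0.848 CPM (SD, n = 4) to 138 ± 23.7 CPM (SD, n = 4) at 16 hours, a fitted difference of 68.8-fold (log2 fold change 6.10, SE 0.29, limma adjusted p = 8.51e-10). ACKR1 was 3.16-fold higher in LPS 5d (limma adjusted p = 0.00292), 3.18-fold in LPS + Beta-Ac (adjusted p = 0.00204) and 5.29-fold in term controls (adjusted p = 0.0037, and 0.0526 in a fit of the 6 control animals alone). It was 21.8-fold higher at 16 hours than at 5 days after LPS (limma adjusted p = 1.01e-07). The 8 erythroid genes with a row, which mark the other source of ACKR1, summed to 219 to 660 CPM in preterm controls, 207 to 645 CPM in LPS 16h, 133 to 413 CPM in LPS 5d, 450 to 558 CPM in LPS + Beta-Ac, and 161 to 283 CPM in term controls. By limma, 0 of the 8 passed in LPS 16h, LPS + Beta-Ac or term against preterm controls (1, 0 and 2 of them at an unadjusted limma p below 0.05). In LPS 5d, 1 passed as lower (12.5%, against 9.23% of all genes), and the log2 fold changes of all 8 were negative. In LPS 16h, 6 of the 8 were positive and 2 negative, with a median of 0.53. In LPS + Beta-Ac, 7 were positive and 1 negative (median 0.23), and in term controls 0 were positive and 8 negative (median -1.01). Between LPS 16h and LPS 5d, 4 of the 8 passed as higher at 16 hours (50%, against 19.4% of all genes). Each of the 4 changed at least 2-fold, against 14.6% of all genes. The median log2 fold change was 1.42 over the 8, in the comparison in which ACKR1 was 21.8-fold higher. The part of erythroid cells in the ACKR1 results was not tested.

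In a bulk sample, fewer cells of a type and less RNA per cell cannot be told apart, and this holds for every gene below. PLVAP forms the diaphragms of fenestrae and caveolae in capillaries and venules. PLVAP stood at a log2 CPM of 3.35, 4.63, 3.90 and 3.62 in preterm controls, 4.87, 4.77, 5.47 and 4.73 in LPS 16h, 4.24, 3.72 and 4.65 in LPS 5d, 4.16, 4.77 and 4.65 in LPS + Beta-Ac, and 2.51 and 2.30 in term controls. The term controls were below all other animals, and LPS 16h was above all preterm controls, while both groups at 5 days overlapped with preterm controls. PLVAP rose 2.12-fold in LPS 16h (log2 fold change 1.08, SE 0.27, limma adjusted p = 0.00507) and was 2.77-fold lower in term controls (log2 fold change -1.47, SE 0.33, limma adjusted p = 0.0239). The term result lost its pass without 113 (adjusted p = 0.0579), 200 (0.117) or 201 (0.123), with voom weights in limma (0.0612), and in the fit of control animals alone (0.103).

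EDNRB, the endothelin receptor of aerocytes and of some mesenchymal cells, was lower in every group compared with preterm controls. EDNRB stood at a log2 CPM of 9.22, 8.45, 8.25 and 7.97 in preterm controls, 8.03, 7.77, 7.74 and 7.64 in LPS 16h, 6.97, 7.31 and 7.49 in LPS 5d, 6.67, 7.10 and 6.70 in LPS + Beta-Ac, and 7.31 and 7.24 in term controls. Only LPS 16h animal 026 reached the range of the preterm controls. EDNRB fell 1.60-fold in LPS 16h (log2 fold change -0.68, SE 0.21, limma adjusted p = 0.0193), 2.32-fold in LPS 5d (-1.22, SE 0.23, adjusted p = 0.00271) and 3.14-fold in LPS + Beta-Ac (-1.65, SE 0.23, adjusted p = 0.000229). In term controls it was 2.30-fold lower (-1.20, SE 0.26, limma adjusted p = 0.021). The preterm control 092 was the highest, and without it the LPS 16h log2 fold change was -0.43 (limma adjusted p = 0.0467). Without 038 the same result missed the threshold (adjusted p = 0.0519), and also in a fit of LPS 16h and preterm controls alone (0.0561). The term result missed it without 200 (limma adjusted p = 0.119) or 201 (0.0988) and in the fit of control animals alone (0.137).

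The adrenomedullin receptor, which guards the endothelial barrier and lymphatic growth, is made of CALCRL and an accessory protein, RAMP2 or RAMP3. CALCRL stood at a log2 CPM of 9.37, 9.68, 9.71 and 8.83 in preterm controls, 9.05, 7.75, 8.05 and 8.08 in LPS 16h, 7.87, 7.23 and 8.59 in LPS 5d, 7.29, 7.76 and 8.08 in LPS + Beta-Ac, and 7.29 and 9.05 in term controls. Both groups at 5 days were below all preterm controls, whereas LPS 16h animal 026 and term control 201 were within the range of the preterm controls. CALCRL fell 2.24-fold in LPS 16h (limma adjusted p = 0.0322), 2.83-fold in LPS 5d (adjusted p = 0.0306) and 3.21-fold in LPS + Beta-Ac (adjusted p = 0.0147). These calls were near the threshold: without 092, 101, 113, 029, 035 or 038 the LPS 16h result had adjusted p values of 0.0568, 0.0773, 0.0782, 0.0949, 0.0755 and 0.0705 by limma. The LPS 5d result had 0.0602, 0.0703, 0.0773, 0.0888 and 0.149 without 092, 101, 113, 239 or 240, and the LPS + Beta-Ac result 0.0721 and 0.0518 without 248 or 249. In term controls CALCRL did not pass, with a log2 fold change of -1.22 (limma adjusted p = 0.185).

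RAMP2 stood at a log2 CPM of 7.85, 7.98, 7.70 and 7.93 in preterm controls, 7.08, 7.38, 6.63 and 6.87 in LPS 16h, 7.64, 7.37 and 7.38 in LPS 5d, 7.39, 7.71 and 7.45 in LPS + Beta-Ac, and 7.51 and 7.66 in term controls. LPS 16h was below all preterm controls, and its highest animal, 029, lay just within the range of LPS 5d. RAMP2 fell 1.84-fold in LPS 16h (log2 fold change -0.88, SE 0.14, limma adjusted p = 0.000163) and did not pass in LPS 5d (-0.40, adjusted p = 0.0896), LPS + Beta-Ac (-0.35, adjusted p = 0.132) or term controls (-0.28, adjusted p = 0.409). It was lower at 16 hours than at 5 days after LPS (-0.47, SE 0.15, limma adjusted p = 0.0231), a call lost without 035 (adjusted p = 0.0688), 038 (0.0601) or 239 (0.109), and in a fit of these 2 groups alone (0.072). RAMP3, the alternative partner, passed in no comparison, with log2 fold changes against preterm controls of 0.19 in LPS 16h, 0.07 in LPS 5d, 0.30 in LPS + Beta-Ac and 0.23 in term controls.

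APLNR, the apelin receptor, marks general capillary cells. APLNR stood at a log2 CPM of 6.51, 6.65, 6.83 and 6.59 in preterm controls, 6.11, 5.16, 4.97 and 5.47 in LPS 16h, 6.56, 5.90 and 6.50 in LPS 5d, 6.26, 6.66 and 6.75 in LPS + Beta-Ac, and 4.18 and 6.14 in term controls. LPS 16h was below all preterm controls, and the pair of term controls lay far apart. APLNR fell 2.33-fold in LPS 16h (log2 fold change -1.22, SE 0.34, limma adjusted p = 0.0112). Its log2 fold change was -0.32 in LPS 5d, -0.09 in LPS + Beta-Ac and -1.49 in term controls, of which none passed (limma adjusted p = 0.623, 0.905 and 0.063).

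FOXF1, a transcription factor of lung mesenchyme and capillary endothelium, stood at a log2 CPM of 6.45, 6.32, 5.87 and 6.27 in preterm controls, 5.10, 5.31, 5.22 and 5.06 in LPS 16h, 5.97, 5.61 and 5.80 in LPS 5d, 5.67, 5.82 and 6.11 in LPS + Beta-Ac, and 5.55 and 5.56 in term controls. The 4 animals of LPS 16h were below all others. FOXF1 fell 2.08-fold in LPS 16h (log2 fold change -1.05, SE 0.13, limma adjusted p = 1.91e-05) and was 1.59-fold lower in term controls (-0.67, SE 0.16, adjusted p = 0.0349). It was also 1.54-fold lower at 16 hours than at 5 days after LPS (limma adjusted p = 0.00349). The values against preterm controls were -0.43 in LPS 5d (adjusted p = 0.0573) and -0.36 in LPS + Beta-Ac (adjusted p = 0.104). Without 092, 101, 200 or 201 the term result had a limma adjusted p of 0.089, 0.0744, 0.184 and 0.124, and in the fit of control animals alone it had 0.132. The 8 mesenchymal genes summed to 11661 to 19939 CPM in preterm controls and 8024 to 11565 CPM in LPS 16h. The sums were 7445 to 13471 CPM in LPS 5d and 7099 to 9922 CPM in LPS + Beta-Ac. In term controls they were 7125 to 7187 CPM. Against preterm controls, 6 of 8 were lower in LPS 16h (75%, against 19.6% of all genes) and 0 in LPS 5d (against 9.23%). In LPS + Beta-Ac 3 were lower (37.5%, against 10.2%), and in term controls 3 (37.5%, against 2.57%). In LPS 5d, 4 of 8 had an unadjusted limma p below 0.05. The log2 fold changes of these 8 in LPS 16h had a median of -0.76. They ran from -1.94 for TCF21, a transcription factor of lipofibroblasts, to 0.23, with 7 negative and 1 positive. The part of the mesenchyme in the FOXF1 result was not tested.

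GPIHBP1 anchors lipoprotein lipase on the capillary wall, and CA4 is the carbonic anhydrase of the capillary surface. GPIHBP1 was near the limit of detection, with 5 to 38 counts per library in LPS 16h, and its log2 CPM in LPS 5d was -0.70, 3.82 and 4.20. Animal 239 lay within the LPS 16h values of 0.18, 0.12, -2.42 and -0.49, and the others were far above them. It was lower at 16 hours than at 5 days after LPS (log2 fold change -3.09, SE 1.09, limma adjusted p = 0.0416). Without 239 that difference was -4.67 (adjusted p = 0.0014), and it missed the threshold without 035 (-2.50, adjusted p = 0.114), 038 (-3.14, 0.0706), 240 (-2.40, 0.169) or 242 (-2.22, 0.184), with voom weights (-3.28, 0.104) and in a fit of these 2 groups alone (-3.11, 0.0766). Against preterm controls, GPIHBP1 had a log2 fold change of -2.50 in LPS 16h (limma adjusted p = 0.0675) and CA4 one of -0.83 (adjusted p = 0.0552).

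**Figure D2:**
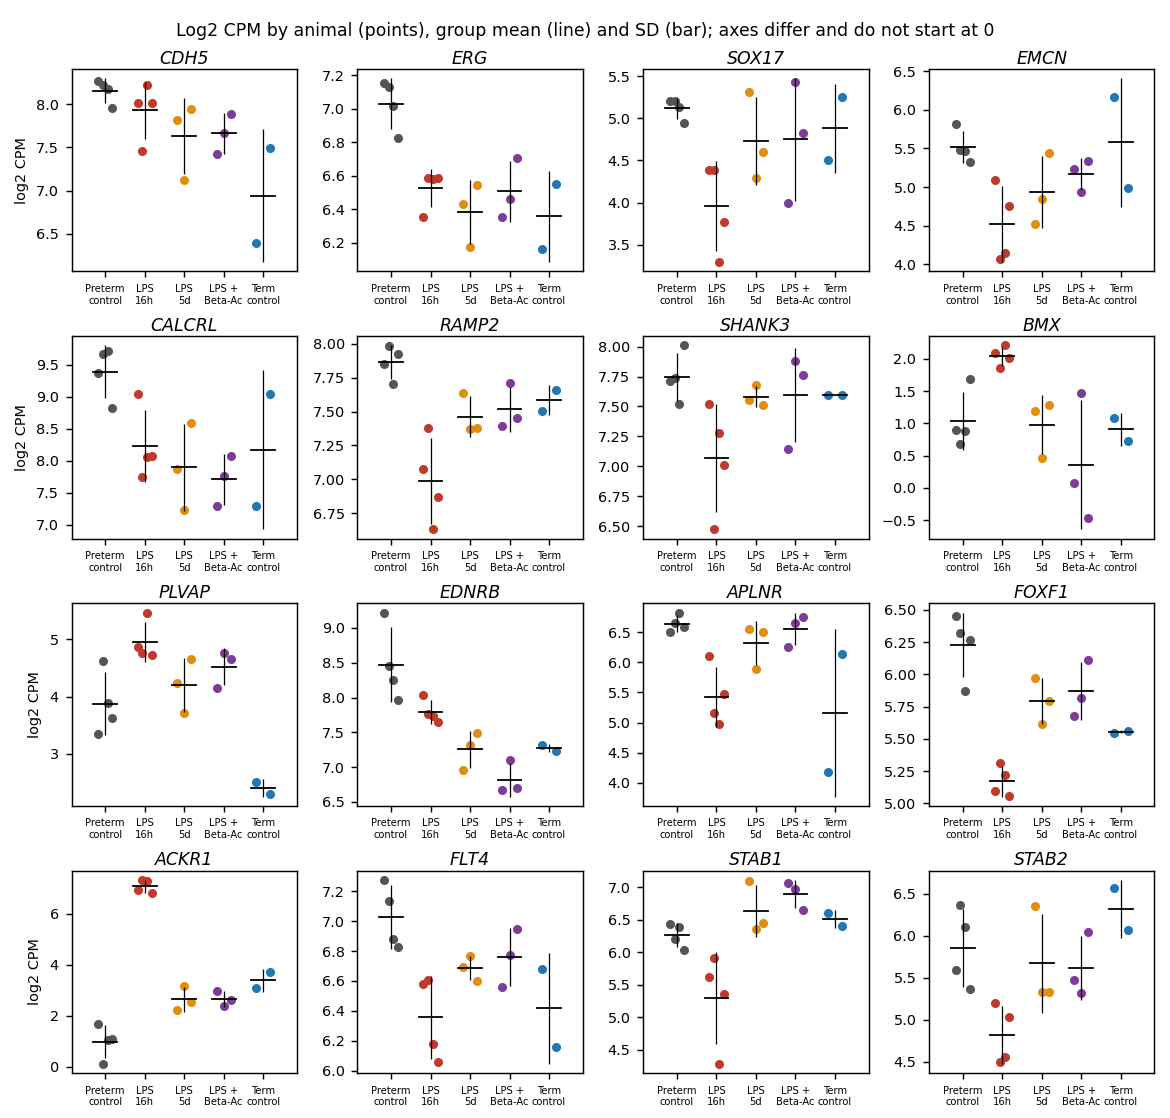
Log2 CPM of 16 endothelial genes in each animal, by group. Points are animals, horizontal lines are group means and vertical lines are 1 SD on either side (n = 4, 4, 3, 3 and 2 from left to right); each panel has its own axis, which does not start at 0. The LPS 16h animals stand apart for ACKR1, BMX, FOXF1, STAB1 and STAB2, and the term controls for PLVAP.

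ERG, the transcription factor that keeps endothelial identity and quiescence, was lower in all 4 groups compared with preterm controls. ERG stood at a log2 CPM of 7.15, 7.13, 7.01 and 6.82 in preterm controls, 6.35, 6.58, 6.58 and 6.59 in LPS 16h, 6.43, 6.17 and 6.55 in LPS 5d, 6.35, 6.46 and 6.71 in LPS + Beta-Ac, and 6.16 and 6.55 in term controls. Every preterm control was above every other animal. The differences were 1.42-fold in LPS 16h (log2 fold change -0.50, SE 0.12, limma adjusted p = 0.00434), 1.57-fold in LPS 5d (-0.65, adjusted p = 0.00459), 1.44-fold in LPS + Beta-Ac (-0.52, adjusted p = 0.0125) and 1.60-fold in term controls (-0.67, adjusted p = 0.0231). Without 248 or 249 the LPS + Beta-Ac result had a limma adjusted p of 0.071 and 0.0645. The term result had 0.0626, 0.0561, 0.0546 and 0.245 without 092, 101, 113 or 200, and 0.0999 in the fit of control animals alone.

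SOX17 and SOX18 are related transcription factors of arterial and lymphatic specification. SOX17 stood at a log2 CPM of 5.20, 5.21, 5.13 and 4.94 in preterm controls, 4.39, 4.39, 3.29 and 3.77 in LPS 16h, 5.31, 4.29 and 4.60 in LPS 5d, 3.99, 5.43 and 4.82 in LPS + Beta-Ac, and 4.51 and 5.25 in term controls. LPS 16h was below all preterm controls, and the other groups overlapped with them. SOX17 fell 2.23-fold in LPS 16h (log2 fold change -1.16, SE 0.32, limma adjusted p = 0.0101) and passed in no other comparison. SOX18 had a log2 fold change of -0.86 in LPS 16h (limma adjusted p = 0.0802).

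CDH5, CLDN5 and ESAM hold the endothelial junctions together, and EMCN is a sialomucin of the capillary and venous surface. CDH5 stood at a log2 CPM of 8.27, 8.22, 8.18 and 7.95 in preterm controls, 8.02, 7.46, 8.22 and 8.01 in LPS 16h, 7.82, 7.13 and 7.95 in LPS 5d, 7.42, 7.67 and 7.89 in LPS + Beta-Ac, and 6.40 and 7.49 in term controls. Term control 200 was the lowest of all animals. CDH5 passed only in term controls, where it was 2.32-fold lower (log2 fold change -1.22, SE 0.29, limma adjusted p = 0.0308). Without 200 that value was -0.67 (adjusted p = 0.32), and the call was also lost without 092 (0.0732), 101 (0.0634) or 113 (0.0704), and in the fit of control animals alone (0.107). CLDN5 and ESAM passed in no comparison, with log2 fold changes in LPS 16h of -0.09 and -0.36 (limma adjusted p = 0.792 and 0.0691).

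EMCN stood at a log2 CPM of 5.82, 5.48, 5.46 and 5.32 in preterm controls, 5.10, 4.07, 4.15 and 4.76 in LPS 16h, 4.52, 4.84 and 5.44 in LPS 5d, 5.23, 4.94 and 5.34 in LPS + Beta-Ac, and 6.17 and 4.99 in term controls. LPS 16h was below all preterm controls, and the term controls lay on both sides of them. EMCN fell 2.00-fold in LPS 16h (SE of the log2 fold change 0.28, limma adjusted p = 0.00997) and had values of -0.59 in LPS 5d, -0.35 in LPS + Beta-Ac and 0.06 in term controls, none of which passed.

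SHANK3, a scaffold protein found in endothelium as well as in synapses, stood at a log2 CPM of 7.71, 7.74, 7.52 and 8.01 in preterm controls, 7.52, 6.47, 7.28 and 7.01 in LPS 16h, 7.55, 7.68 and 7.51 in LPS 5d, 7.15, 7.88 and 7.76 in LPS + Beta-Ac, and 7.59 and 7.59 in term controls. The highest LPS 16h animal, 026, and the lowest preterm control, 113, both rounded to 7.52, and the groups did not overlap. SHANK3 fell 1.60-fold in LPS 16h (log2 fold change -0.68, SE 0.20, limma adjusted p = 0.014), a call lost without 209 and 200 together (adjusted p = 0.0508), and it passed in no other comparison. BMX encodes a non-receptor tyrosine kinase of arterial endothelium that is also found in myeloid cells. BMX stood at a log2 CPM of 0.89, 0.67, 0.88 and 1.69 in preterm controls, 2.09, 1.86, 2.21 and 2.02 in LPS 16h, 1.19, 0.46 and 1.29 in LPS 5d, 0.07, 1.48 and -0.46 in LPS + Beta-Ac, and 1.09 and 0.73 in term controls. LPS 16h was above all other animals. BMX rose 2.01-fold over preterm controls (log2 fold change 1.01, SE 0.35, limma adjusted p = 0.0338) and was 2.09-fold higher than in LPS 5d (1.06, SE 0.38, adjusted p = 0.0403). The call against preterm controls was lost without 092, 101, 113, 026, 035 or 038 (limma adjusted p = 0.0728, 0.0926, 0.0747, 0.0641, 0.0768 and 0.0608), and that against LPS 5d without 026, 035, 038, 239 or 240 (0.0717, 0.0831, 0.0702, 0.0625 and 0.176).

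Among the lymphatic and sinusoidal genes, FLT4, STAB1 and STAB2 were lower in LPS 16h, and none of the 6 genes passed in LPS 5d, LPS + Beta-Ac or term controls, with 0, 0 and 1 of them at an unadjusted limma p below 0.05. FLT4 is the receptor for the lymphatic growth factor VEGF-C, and it is also found in fetal blood capillaries. FLT4 stood at a log2 CPM of 7.28, 7.13, 6.88 and 6.83 in preterm controls, 6.58, 6.61, 6.18 and 6.06 in LPS 16h, 6.69, 6.76 and 6.60 in LPS 5d, 6.56, 6.77 and 6.95 in LPS + Beta-Ac, and 6.68 and 6.16 in term controls. LPS 16h, LPS 5d and term controls were below all preterm controls, and LPS + Beta-Ac overlapped with them. FLT4 fell 1.59-fold in LPS 16h (log2 fold change -0.67, SE 0.16, limma adjusted p = 0.00304), with values that did not pass in LPS 5d (-0.34, adjusted p = 0.196) and term controls (-0.61, adjusted p = 0.0859).

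STAB1 and STAB2 are scavenger receptors of sinusoidal and lymphatic endothelium, and STAB1 is also made by macrophages. STAB1 stood at a log2 CPM of 6.44, 6.21, 6.40 and 6.04 in preterm controls, 5.63, 5.92, 4.29 and 5.36 in LPS 16h, 7.10, 6.36 and 6.45 in LPS 5d, 7.07, 6.98 and 6.66 in LPS + Beta-Ac, and 6.61 and 6.41 in term controls. The 4 animals of LPS 16h were below all others, and LPS + Beta-Ac was above all preterm controls without passing (log2 fold change 0.63, limma adjusted p = 0.167). STAB1 fell 1.96-fold in LPS 16h against preterm controls (-0.97, SE 0.27, limma adjusted p = 0.0117) and was 2.52-fold lower than in LPS 5d (-1.34, SE 0.30, adjusted p = 0.00269). Without 035, the lowest animal, the first of these values was -0.63 (limma adjusted p = 0.0165).

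STAB2 stood at a log2 CPM of 5.59, 6.36, 6.10 and 5.36 in preterm controls, 5.20, 4.50, 4.56 and 5.04 in LPS 16h, 6.35, 5.33 and 5.33 in LPS 5d, 5.48, 5.32 and 6.04 in LPS + Beta-Ac, and 6.56 and 6.07 in term controls. LPS 16h was below all other animals. STAB2 fell 2.04-fold against preterm controls (log2 fold change -1.03, SE 0.28, limma adjusted p = 0.00874) and was 1.80-fold lower than in LPS 5d (-0.85, SE 0.30, adjusted p = 0.0392). The second call was lost without 239 (-0.51, limma adjusted p = 0.217), 029 (-0.74, 0.0858) or 035 (-0.76, 0.0937), and in a fit of these 2 groups alone (-0.85, 0.0519). LYVE1, a hyaluronan receptor of lymphatic vessels and of tissue macrophages, was 2.50-fold lower in LPS 16h than in LPS 5d (log2 fold change -1.32, SE 0.48, limma adjusted p = 0.0458) and passed against preterm controls in no group. Without 242 the LYVE1 value was -0.85 (limma adjusted p = 0.217), and without 029, 035, 038 or 239 the adjusted p was 0.0502, 0.122, 0.0789 and 0.0616.

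PROX1 and MMRN1, the more restricted lymphatic markers of the 6, passed in no comparison. PROX1 had log2 fold changes against preterm controls of 0.09 in LPS 16h, 0.77 in LPS 5d, 0.24 in LPS + Beta-Ac and 0.76 in term controls. MMRN1, a secreted protein of lymphatic cells and platelets, had values of -0.31, -0.58, -0.63 and -0.32 in the same groups.

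Macrophage genes also differed between the groups in which STAB1 and LYVE1 were compared. The 12 macrophage genes summed to 92.2 to 154 CPM in preterm controls and 280 to 440 CPM in LPS 16h. The sums were 208 to 297 CPM in LPS 5d and 438 to 803 CPM in LPS + Beta-Ac. In term controls they were 161 to 356 CPM, and MARCO was at 0 in at least 1 preterm control. Against preterm controls, 8 of 12 were higher in LPS 16h (66.7%, against 18.7% of all genes) and 8 in LPS 5d (66.7%, against 5.49%). In LPS + Beta-Ac, 12 were higher (100%, against 7.1%). In term controls 0 were higher (against 1.42%), where 12 had an unadjusted limma p below 0.05. Between LPS 16h and LPS 5d, 4 of the 12 were higher (33.3%, against 19.4%) and 3 lower (25%, against 15.6%) at 16 hours. The median log2 fold change in that comparison was 0.10. Against preterm controls, the log2 fold changes of the 12 in LPS 16h ran from -1.02 to 6.50, with 10 positive, 2 negative and a median of 1.18. CD163, a macrophage scavenger receptor, was among the 10 positive genes with a value of 3.60, and it does not represent the 12. The part of macrophages in the STAB1 and LYVE1 results was not tested.

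**Figure D3:**
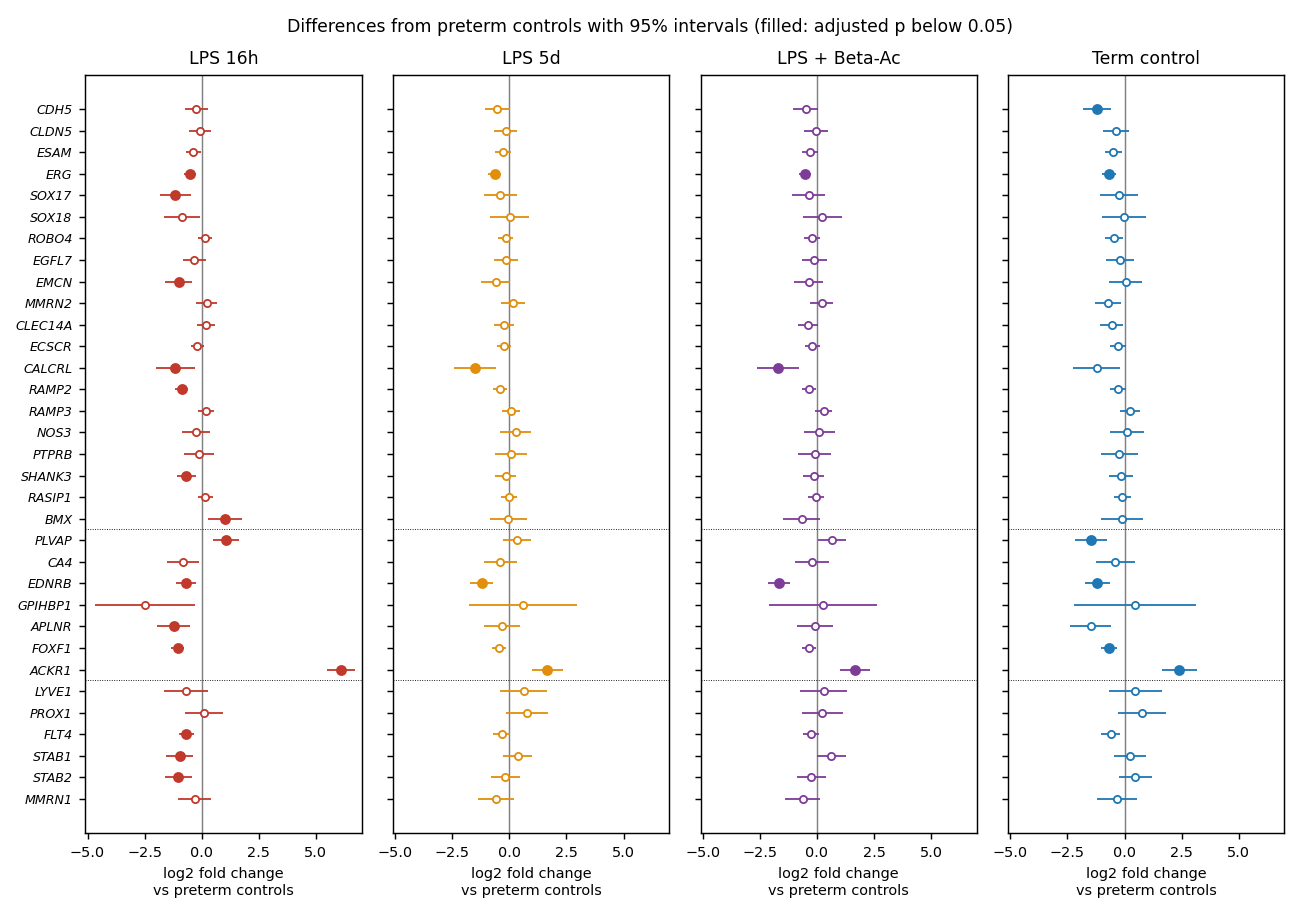
Log2 fold change of the 33 endothelial genes against preterm controls in LPS 16h, LPS 5d, LPS + Beta-Ac and term controls, with 95% confidence intervals of single genes from limma as horizontal lines. Filled points passed at an adjusted p below 0.05: 15 in LPS 16h, 4 in LPS 5d, 4 in LPS + Beta-Ac and 6 in term controls. Dotted lines part the pan-endothelial, capillary and venule, and lymphatic and sinusoidal genes.

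Of the 33 genes, 15 passed in no comparison. Besides those named above (CA4, ESAM, CLDN5, SOX18, RAMP3, PROX1 and MMRN1), they were ROBO4 and CLEC14A, which take part in vessel guidance and sprouting, EGFL7 and MMRN2, secreted into the vessel matrix, ECSCR, NOS3, which makes nitric oxide, PTPRB, a phosphatase that restrains the angiopoietin receptor, and RASIP1, which is needed for vessel lumens. Among these 8, the log2 fold changes in LPS 16h lay between -0.32 for EGFL7 and 0.22 for MMRN2, and those in term controls between -0.74 for MMRN2 and 0.11 for NOS3. By set, the genes that passed in LPS 16h were 7 of 20 pan-endothelial genes (35%), 5 of 7 capillary and venule genes (71.4%) and 3 of 6 lymphatic and sinusoidal genes (50%), against 38.3% of all genes in either direction.

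Between the intervals after LPS, 2 genes were higher at 16 hours than at 5 days (6.06%, against 19.4% of all genes), namely ACKR1 and BMX. In the other direction, 6 were lower at 16 hours (18.2%, against 15.6% of all genes), namely FOXF1, STAB1, RAMP2, STAB2, GPIHBP1 and LYVE1. At least 2-fold differences were found for 5 genes, against 14.6% of all genes. The count of 8 was 3 without LPS 16h animal 035, 4 without 038 and 5 without LPS 5d animal 239.

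When Beta-Ac was added to LPS at 5 days, 0 of 33 genes passed by limma, 0 had an unadjusted p below 0.05, and 0 passed with voom weights. In a limma fit of these 2 groups alone, 1 of the 33 had an unadjusted p below 0.05. Among all genes, 0.104% passed as higher, 0% as lower, and 0.104% with a change of at least 2-fold. The log2 fold changes of the 33 genes between LPS + Beta-Ac and LPS 5d ran from -0.62 for BMX to 0.32 for PLVAP. The intervals leave room for differences: for EDNRB the log2 fold change was -0.43 with a 95% interval from -0.95 to 0.09, for CALCRL -0.18 with -1.17 to 0.80, and for ACKR1 0.01 with -0.71 to 0.73. For ERG it was 0.12, with an interval from -0.18 to 0.42.

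Averaged over the 20 pan-endothelial genes, the 4 preterm controls lay closest together, at a mean log2 CPM of 6.59 to 6.67. All 12 other animals were lower, at 6.13 to 6.58, with the lowest values in LPS + Beta-Ac animal 248, term control 200 and LPS 5d animal 240. For the 7 capillary and venule genes, the term controls, at 4.56 and 4.77, were below the preterm controls, at 4.85 to 5.23, and the 3 other groups overlapped with preterm controls. The LPS 16h mean includes ACKR1, with a log2 fold change of 6.10, whereas 5 of the 7 genes had negative values, with a median of -0.83 over the 7. For the 6 lymphatic and sinusoidal genes, LPS 16h lay between 3.80 and 4.56, overlapping with preterm controls, between 4.35 and 5.13, and below LPS 5d, between 4.65 and 5.13, and term controls, at 4.88 and 4.99. These means are a description and were not tested.

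**Figure D4:**
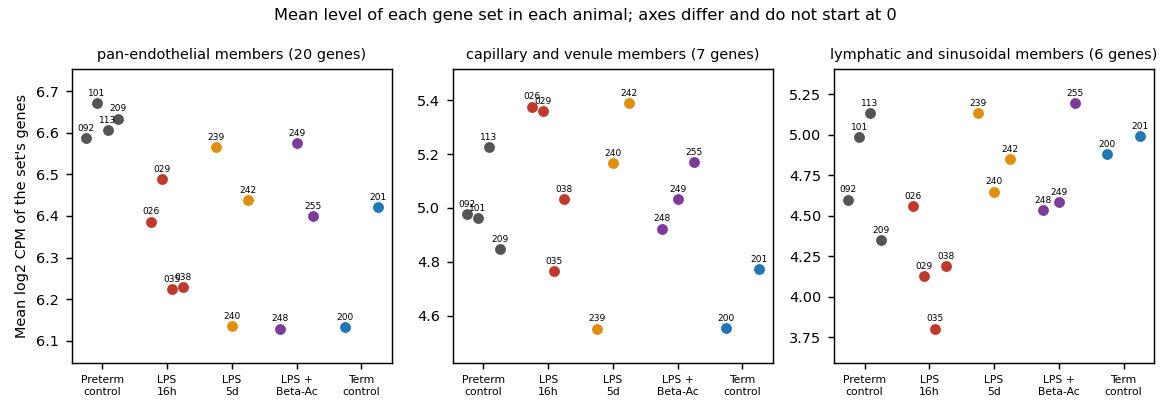
Mean log2 CPM over the tested genes of each set (20 pan-endothelial, 7 capillary and venule, 6 lymphatic and sinusoidal) in each animal, with the animal's number beside its point. The preterm controls are the 4 highest animals for the pan-endothelial genes, the term controls are below them for the capillary and venule genes, and LPS 16h is below LPS 5d and term controls for the lymphatic and sinusoidal genes; axes do not start at 0.

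Other genes of the same vessels, listed separately, were set beside the 33. Their counts stand against shares of all genes that passed as lower of 19.6% in LPS 16h, 9.23% in LPS 5d, 10.2% in LPS + Beta-Ac and 2.57% in term controls, and as higher of 18.7%, 5.49%, 7.1% and 1.42%. Of 18 further pan-endothelial genes, 6 were lower (33.3%) and 0 higher in LPS 16h, among them KDR, the main VEGF receptor (log2 fold change -1.17, limma adjusted p = 2.25e-06), CD34 (-0.96), ARHGEF15 (-0.96) and the sphingosine phosphate receptor S1PR1 (-1.04). In LPS 5d, 3 of the 18 were lower, namely S1PR1 (-0.90), CD34 (-0.47) and ADGRL4 (-0.70), and in LPS + Beta-Ac 4 were lower, namely ADGRL4 (-1.01), S1PR1 (-0.78), CD34 (-0.43) and KDR (-0.47). In term controls, CD34 (-0.75), KDR (-0.63) and ADGRL4 (-0.90) were lower. No gene of the list was higher in these 4 comparisons.

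Of 10 further capillary genes tested, several of which other lung cells also make, 6 were lower (60%) and 1 was higher (10%) in LPS 16h. TBX3 (log2 fold change -1.92, limma adjusted p = 1.14e-08) and TBX2 (-1.39), transcription factors of aerocytes and mesenchyme, were lower together with the oxidase CYP4B1 (-2.08) and the prostaglandin-degrading enzyme HPGD (-1.52). HPGD and TBX3 were also lower in LPS 5d (-1.74 and -0.87), in LPS + Beta-Ac (-1.88 and -0.72) and in term controls (-1.13 and -0.58). The list had 3 lower and 1 higher in LPS 5d, 3 lower and 0 higher in LPS + Beta-Ac, and 2 lower and 1 higher in term controls.

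Of 10 arterial and venous genes, 4 were lower (40%) and 1 was higher (10%) in LPS 16h. VCAM1, the leukocyte adhesion molecule of activated endothelium, was higher (log2 fold change 4.56, limma adjusted p = 2.22e-08), and NR2F2, the transcription factor of venous identity (-0.81), the arterial connexin GJA5 (-1.43) and CPE (-0.95) were lower. NR2F2 and CPE were also lower in LPS 5d (-0.46 and -0.68) and in LPS + Beta-Ac (-0.47 and -0.85), and EPHB4, the venous ephrin receptor, was lower in term controls (-0.70). Of 9 further lymphatic genes tested, 3 were lower (33.3%) and 1 was higher (11.1%) in LPS 16h, with SEMA3D at -1.90 (limma adjusted p = 4.4e-05), ITGA9 at -0.95, RELN at -0.61 and the semaphorin receptor NRP2 at 0.74. In LPS 5d, 1 of the 9 passed (SEMA3D, -1.16), in LPS + Beta-Ac 3 were lower and 1 higher, and in term controls 0 passed, with 0 at an unadjusted limma p below 0.05. CCL21, the chemokine of lymphatic vessels, passed in no comparison.

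Genes of other lung cell types also differed between the groups. Their counts stand against the same shares of all genes as those of the vessel lists above. Of 8 alveolar type 1 cell genes, 6 were lower (75%, against 19.6% of all genes) in LPS 16h. The 8 summed there to 1491 to 1762 CPM, against 4060 to 4642 CPM in preterm controls. PDPN is in this list and also among the further lymphatic genes. In LPS + Beta-Ac 4 of the 8 were lower, in LPS 5d 1 was higher and 1 lower, and in term controls 1 was higher and 0 lower. Of 12 proliferation genes, 4 were lower (33.3%) in LPS 16h, 10 in LPS 5d, 9 in LPS + Beta-Ac and 10 in term controls, with sums of 231 to 311 CPM in preterm controls, 118 to 134 CPM in LPS 5d and 106 to 119 CPM in term controls. Of 5 megakaryocyte and platelet genes tested, which could be a source of MMRN1, 0 passed against preterm controls in any group, with 0, 1, 1 and 0 at an unadjusted limma p below 0.05 in LPS 16h, LPS 5d, LPS + Beta-Ac and term. The part of these cell types in the endothelial results was not tested.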

How the data were processed

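The authors sequenced poly(A)-selected RNA from frozen fetal lung with paired-end reads of 75 bp. They ran kallisto on the rhesus build Mmul_10, obtained gene-level values through tximport. The authors used DESeq2 for their own comparisons. Per the labels, RNA was extracted with a phenol-based reagent, whereas the paper names a column kit. The deposited table holds 1 whole-number count for each Ensembl gene in each animal, neither normalized nor filtered. The annotation release and the versions of these tools are not given in the sources used, nor is any rounding. The layout of the table, with columns named by bare numbers, kept its unit from being recorded as counts, so limma was run on log2 CPM in place of a count model.

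Libraries were scaled by trimmed means of log ratios (TMM), and a prior count of 2 was used in log2 CPM. Genes with at least 0.371 CPM in 2 or more animals and 15 counts in total were kept (19199 of 22515). One mean per group was fitted to all 16 animals with limma 3.58.1 in R 4.3.3, with the trend and robust options, and two-sided p values were adjusted over all genes tested. Fold changes are on the scale of log2 of counts with the prior, which understates changes of low genes such as GPIHBP1, PROX1 and BMX. Symbols were matched by Ensembl identifier for 17256 genes. Each animal is 1 fetus with 1 library, and pairs of replicates differed by more than counting error (chi-square per degree of freedom 31.1 to 166.1). The steps were tested on simulated data.

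The genes and lists were chosen with earlier results of these data known. Values per animal are given for the 16 of 18 genes passing in any comparison that had the smallest adjusted p. GPIHBP1 and LYVE1, the other 2, and genes that did not pass are given by range, count or single value. From each other list, at most 4 genes per comparison with the smallest adjusted p among those passing were named. TCF21, CD163 and MARCO are the only genes named from the mesenchymal and macrophage lists, and they do not represent them. The erythroid list is given by counts and sums, and CCL21 was named after its values were seen. Alternatives were another scaling, no filter, voom weights, a prior of 0.5, fits of the compared groups only, a 2-fold limit, and leaving out animals.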

Additional observations from a re-analysis of the deposited data

Results flagged for a closer look

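In 4 of 66 combinations of a gene with a group of 4 animals, 1 animal stood far from the other 3 on the log2 CPM scale. Chance flags about 1 in 20 groups. CLDN5 was 7.87 in LPS 16h animal 029, against 6.67 to 6.76 in the other 3 animals. ERG was 6.35 in LPS 16h animal 026, against 6.58 to 6.59 in the others. Among preterm controls, EGFL7 was 9.24 in animal 101, against 8.87 to 8.92, and NOS3 was 4.12 in animal 092, against 5.15 to 5.36.

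The effects of LPS at 16 hours and at 5 days, each taken against the same preterm controls, differed by limma for 8 of the 33 genes (24.2%). This is the comparison of LPS 16h with LPS 5d given above, in which 19.4% of all genes passed as higher and 15.6% as lower. The differences, LPS 16h minus LPS 5d on the log2 scale, were 4.44 for ACKR1, 1.06 for BMX, -0.47 for RAMP2, -0.62 for FOXF1, -0.85 for STAB2, -1.32 for LYVE1, -1.34 for STAB1 and -3.09 for GPIHBP1.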

How the results depend on the processing

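Results of a single gene were checked under every alternative but the 2-fold limit, which was applied to counts of genes only. Of 37 results of a single gene that passed in a comparison, 19 passed under all of these, 18 lost their pass at least once, and 0 changed direction. Among the 19 were calls below 2-fold, such as FLT4 in LPS 16h against preterm controls (log2 fold change -0.67). With a 2-fold limit as well, the genes passing were 9 in LPS 16h against preterm controls and 5 in LPS 16h against LPS 5d. A fit of the 6 control animals alone passed 0 genes in term against preterm controls by limma, with 14 at an unadjusted p below 0.05. Without preterm control 209 and term control 200 together, that comparison had 2. Leaving out 1 animal at a time gave 12 to 17 genes in LPS 16h, 3 to 4 in LPS 5d, 2 to 5 in LPS + Beta-Ac and 1 to 6 in term controls, each against preterm controls, 3 to 10 in LPS 16h against LPS 5d, and 0 to 0 in LPS + Beta-Ac against LPS 5d. With 1 term control left, that animal is assumed to vary like the other groups. The cause of these changes was not tested beyond the smaller number of animals. Counts within 1.5 times the main count were found for another scaling, no filter, voom weights and a prior of 0.5. No paired analysis was possible because the groups share no animal number. Precision is limited by 2 to 4 animals a group and, for GPIHBP1, by as few as 5 counts in a library.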
